A study of Caenorhabditis elegans with 2 samples.

Results

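The neighbouring genes ifbp-1 and cpz-2 lie head to head on chromosome V of Caenorhabditis elegans, and their surroundings hold 7 of the 2470 summits in the pooled thresholded list of binding sites of the transcription factor GRH-1. These 2 of 19973 protein-coding genes were selected on the signal values themselves. The reason was that the summit with the second highest value of that list lies within ifbp-1, and the fourth highest lies between the 2 genes. The high values at these summits are therefore given as a description, with no test. Members were all summits in either gene or within 5 kb of it (bases 13365083 to 13388077 of chromosome V in the build ce11, 22995 bp). The assay was ChIP-seq, the sequencing of immunoprecipitated chromatin, on whole L1 larvae of strain RW12208, in which CRISPR inserted the tags TY1, EGFP and 3xFLAG at grh-1 on chromosome I (allele st12208). All animals were 6 h old, starved after bleaching, and carried the tagged protein, which was precipitated with an antibody against GFP; the antibody field of the labels gives grh-1, the gene of the tagged protein. There were 2 biological replicates of this 1 group, so no treatment or genotype was compared, and whole larvae do not show in which cells a site was bound. The control library was not analysed here, and the number of reads behind each list is unknown.

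Grainyhead proteins are transcription factors known for regulating epidermal and other epithelial genes across animals, and they bind DNA as dimers at a palindrome, AACCGGTT. In the annotation, ifbp-1 (WBGene00010867) encodes a protein with the zinc finger domain of interferon regulatory factor 2-binding proteins, which in mammals are known as co-repressors of transcription. The gene cpz-2 (WBGene00000789) encodes a cathepsin X, a cysteine protease of the papain family that trims proteins from their carboxyl end. Its paralogue CPZ-1 is known in C. elegans for a role in molting, the shedding of the larval cuticle.

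The sequences around 4 of the summits hold the Grainyhead-type sites of the locus that lie within 100 bp of a summit, and they are shown as 201 bases of the plus strand of ce11 chromosome V, read 5′ to 3′, with the summit at the middle base. Summits are called S1 to S9 in the order of their coordinates. Capitals mark the Grainyhead palindrome AACCGGTT, the related site AACTGGTT (or its complement AACCAGTT) and the GAGA repeat GAGAGA (or TCTCTC), searched on both strands, and runs of GAGAGA overlap each other. S2 and S9 are the 2 highest summits, and S5 and S7 are the other summits of the locus with a Grainyhead-type site.
S2, bases 13371438 to 13371638, in an ifbp-1 intron: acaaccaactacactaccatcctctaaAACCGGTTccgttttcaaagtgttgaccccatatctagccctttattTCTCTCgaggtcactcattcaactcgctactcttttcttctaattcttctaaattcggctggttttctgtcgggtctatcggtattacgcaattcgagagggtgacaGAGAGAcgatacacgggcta
S5, bases 13375956 to 13376156, in the longest ifbp-1 intron: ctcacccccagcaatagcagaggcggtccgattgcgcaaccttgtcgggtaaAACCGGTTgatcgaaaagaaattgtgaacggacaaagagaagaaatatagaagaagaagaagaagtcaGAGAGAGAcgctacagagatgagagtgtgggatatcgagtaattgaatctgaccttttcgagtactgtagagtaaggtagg
S7, bases 13378472 to 13378672, in the longest ifbp-1 intron: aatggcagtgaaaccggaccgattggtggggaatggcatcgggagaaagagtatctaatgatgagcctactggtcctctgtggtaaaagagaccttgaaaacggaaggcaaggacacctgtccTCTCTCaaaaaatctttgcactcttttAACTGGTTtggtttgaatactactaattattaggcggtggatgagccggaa
S9, bases 13380292 to 13380492, between ifbp-1 and cpz-2: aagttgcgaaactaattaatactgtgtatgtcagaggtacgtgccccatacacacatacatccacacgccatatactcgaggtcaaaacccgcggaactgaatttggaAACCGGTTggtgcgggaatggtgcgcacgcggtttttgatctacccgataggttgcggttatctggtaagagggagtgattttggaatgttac

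A further pair of sites lay inside the peaks of S2 and S9 but outside these windows, and 30 bases around each are given because they make those peaks the ones of the locus with a pair of sites.
Second palindrome of the S2 peak, bases 13371667 to 13371696: ctttacgcaacAACCGGTTttttgggacga
Related site of the S9 peak, bases 13380208 to 13380237: gatgatggagaAACTGGTTctcgaggacag

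The gene models set how the place of each summit is described. The gene ifbp-1 runs on the minus strand from base 13380262 down to base 13370083 (10180 bp), with 10 annotated transcripts and 7 different 5′ ends. The 5′ ends of transcripts b and f are at bases 13380262 and 13380065. The ends of a and g lie within the long first intron of b and f, at 13373020 and 13372898. The others lie beyond it, at 13372787 (c and h), 13372005 (d and i) and 13371142 (e and j). Of the 10 transcripts, 8 have no annotated 5′ UTR, so those ends are start codons, and the true start of transcription may lie further upstream. The gene cpz-2 runs on the plus strand from base 13381189 to base 13383077 (1889 bp) with 1 transcript of 6 exons. The 5′ ends of ifbp-1 transcript b and of cpz-2 face each other across 926 bp of intergenic sequence. The flanks of 5 kb also reach srx-125, a gene of the srx class of chemoreceptors, gcy-34, a guanylyl cyclase gene, and somi-1, a zinc finger gene.

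**Figure D1:**
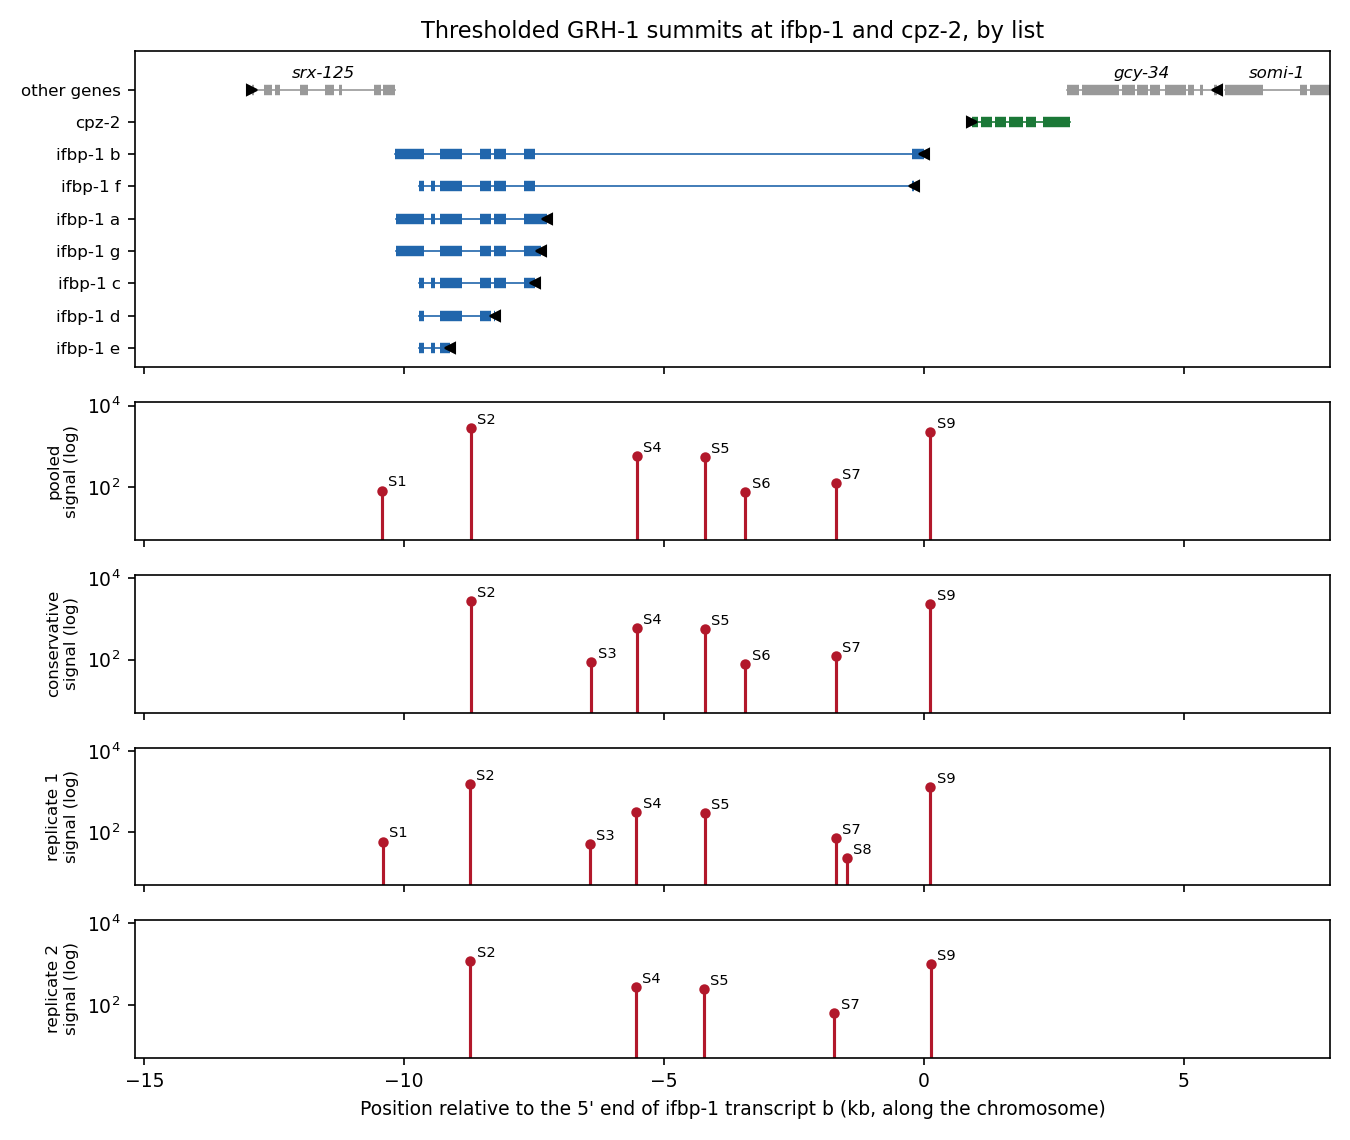
Gene models (top; thick bars are exons, arrowheads 5′ ends, 1 ifbp-1 transcript for each of the 7 different 5′ ends) and thresholded summits in the pooled, conservative, replicate 1 and replicate 2 lists. The x axis is the distance in kb from the 5′ end of ifbp-1 transcript b along the chromosome, the y axes are signal values on a log scale, and S2, S4, S5, S7 and S9 appear in all 4 lists.

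The highest summit of the locus, S2, lay inside ifbp-1. In the pooled list its signal value, a score of the authors with no stated scale, was 2739, which ranked 2 of 2470. In replicate 1 the signal value of S2 was 1526 (rank 2 of 1787) and in replicate 2 it was 1190 (rank 1 of 1487), so it was among the 2 highest peaks of each replicate's list. The peak spanned bases 13371284 to 13371830 (547 bp). The summit, at base 13371538, fell in an intron of 355 bp (bases 13371370 to 13371724) shared by 8 of the 10 transcripts. It was 396 bp upstream of the 5′ end of transcripts e and j, and thus in their promoter window (the 1000 bp before a 5′ end and the 200 bp after it), and 467 bp downstream of that of d and i. For the long transcripts it was far inside the gene, 8724 bp downstream of the 5′ end of b.

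The second highest summit, S9, lay in the sequence between the genes. Its signal value was 2283 in the pooled list (rank 4), 1273 in replicate 1 (rank 4) and 1024 in replicate 2 (rank 4). The peak spanned bases 13380131 to 13380583 (453 bp) with the summit at base 13380392, so it reached into the 5′ UTR of ifbp-1 transcript b. The summit was 130 bp upstream of the 5′ end of transcript b, 327 bp upstream of that of f and 797 bp upstream of that of cpz-2. It was thus in the promoter windows of both genes, and nearer to ifbp-1. S2 and S9 were 8854 bp apart, on either side of the longest ifbp-1 intron.

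Together S2 and S9 placed a pooled summit in the promoter windows of 4 of the 10 ifbp-1 transcripts, b, f, e and j, and at 3 of the 7 different 5′ ends. Over all protein-coding genes, 8.16% had a pooled summit in a promoter window, and 25.1% had one in the gene or within 5 kb. These shares are background only, since both genes were chosen for their summits. Transcripts a and g had a summit in their window in the conservative list and in replicate 1 (S3), but not in the pooled list. Transcripts c, d, h and i had none in any thresholded list.

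The longest ifbp-1 intron, of 7248 bp (bases 13372788 to 13380035), held 4 of the 7 pooled summits, S4 to S7. It follows the 5′ ends of b and f, contains those of a and g, and precedes the rest. S4, at base 13374738, had a pooled signal value of 582 (rank 147), 312 in replicate 1 and 274 in replicate 2. S5, at base 13376056, had 550.1 in the pool (rank 165), 291 in replicate 1 and 249 in replicate 2. These 2 summits, 1318 bp apart, were close to each other in signal value in each list. Relative to the nearest annotated 5′ ends, S4 was 1718 bp upstream of that of transcript a, and S5 was 3036 bp upstream of the same end and 4009 bp downstream of that of f.

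The other 2 pooled summits of this intron were lower. S7, at base 13378572, had a pooled signal value of 124.6 (rank 1258), 73.3 in replicate 1 and 63.9 in replicate 2, near the median of the whole pooled list, 126.7. S6, at base 13376829, had 76.1 in the pooled list (rank 2225) and was in the thresholded list of neither replicate. Its values in the replicates' ranked lists, which hold every candidate peak before the threshold, were 43.4 in replicate 1 and 43.2 in replicate 2, so the replicates were close to each other there.

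Several summits in 1 intron were uncommon in the genome. Of 109613 distinct introns of protein-coding genes, 549 held a pooled summit and 14, in 13 genes, held 4 or more, with 5 the highest count. Of the 364 introns at least as long as this one, 69 held a summit and 9 held 4 or more. The count was not tested, since the summits chose the locus.

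The seventh pooled summit, S1 at base 13369837, lay outside both genes, 246 bp beyond the 3′ end of ifbp-1 and in an intron of srx-125. It was 127 bp downstream of the 5′ end of the shortest srx-125 transcript. Its signal value was 81.7 in the pooled list (rank 2066) and 59.0 in replicate 1, while the nearest peak of replicate 2, with its summit 71 bp away, had 17.7 in that replicate's ranked list and did not pass the threshold. The ratio of replicate 1 to replicate 2, 3.34, was the largest among the summits of the locus with a peak in both ranked lists.

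No thresholded summit lay within cpz-2 itself. The pooled ranked list had 4 peaks with summits in its coding exons, with signal values of 17.5, 18.9, 36.4 and 39.9, around the median of 23.9 of that whole list. The counts that cpz-2 receives within 5 kb, 3 pooled summits, were S6, S7 and S9, of which S6 and S7 lie inside ifbp-1, 4360 and 2617 bp upstream of the cpz-2 5′ end. Peak lists do not say which gene a bound position acts on.

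The 4 thresholded lists together held 9 summits at the locus, with summits within 100 bp counted once. The pooled list held 7, the conservative list 7, replicate 1 held 8 and replicate 2 held 5. Of the 7 pooled summits, replicate 1 had 6 and replicate 2 had 5. The same 5 (S2, S4, S5, S7 and S9) were in both replicates and in the conservative list, against 48.2% of all pooled summits found in both replicates. The locus was chosen for the high signal values of S2 and S9, so this share is a description only. At the 5 summits found in both replicates, the summits of the replicates lay at most 31 bp from the pooled one. The pooled lists were made from the same reads as the replicates, so agreement between them is not independent.

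**Figure D2:**
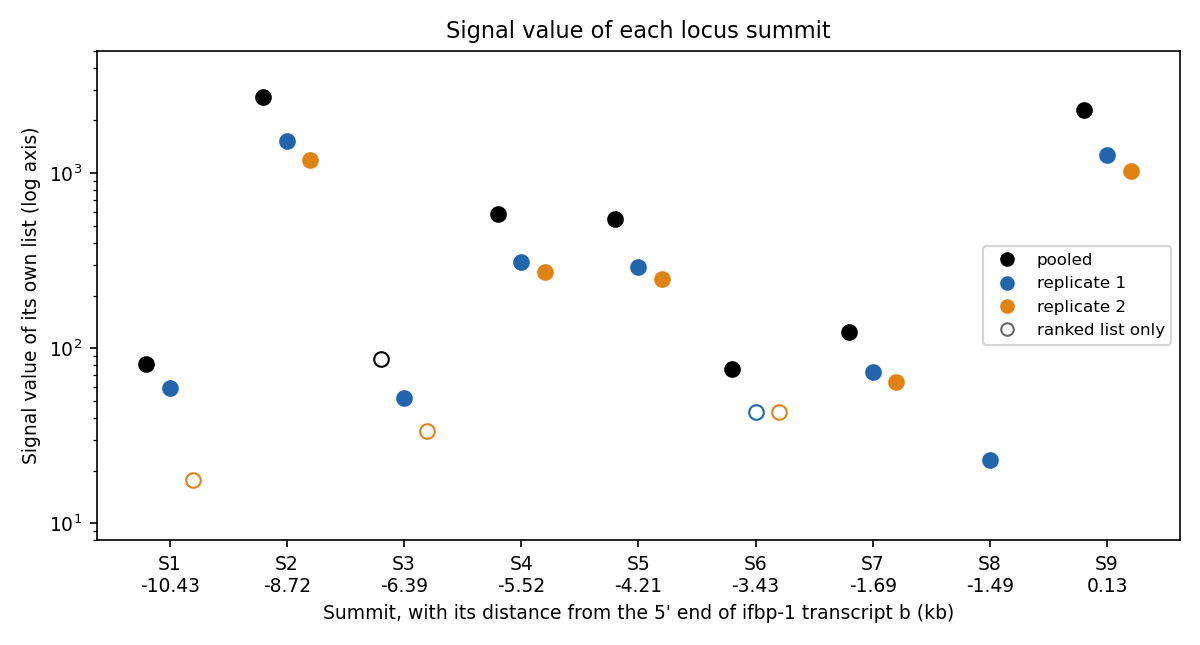
Signal value (log axis) of each locus summit S1 to S9 in the pooled, replicate 1 and replicate 2 lists. Filled points passed the threshold of their list and open points are in the ranked list only; replicate 1 is above replicate 2 at S2, S4, S5, S7 and S9, and the 2 open points at S6 nearly coincide.

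Signal values were higher in replicate 1 than in replicate 2 at all 8 summits with a peak in both ranked lists. Ratios of replicate 1 to replicate 2 were 1.28 at S2, 1.24 at S9, 1.14 at S4, 1.17 at S5, 1.15 at S7 and 1.00 at S6. Over the 1184 summits of the genome matched within 100 bp between the thresholded lists, the median ratio was 1.26, with quartiles of 1.09 and 1.45. The ratios at S2, S4, S5, S7 and S9 therefore lay inside the quartiles of all matched summits. S6 lay below them, and S3 (1.55) and S1 (3.34) lay above. These 3 summits were not thresholded in both replicates, while the quartiles come only from summits that were, so their place outside the quartiles is in part set by that choice.

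S1 and S3 changed places between the pooled lists. S3, at base 13373867, had a signal value of 87.3 in the conservative list (rank 1889) and 52.0 in replicate 1, and 33.6 in the ranked list of replicate 2. Its signal value was the same in both pooled ranked lists, but the −log10 of its irreproducible discovery rate (IDR) differed. It was 0.584 in the list behind the pooled peaks and 2.18 in the list behind the conservative peaks. For S1 the order was opposite, with a −log10 IDR of 2.18 in the first and 0.130 in the second. The IDR is the estimated chance that a peak does not repeat between the sets of peaks compared. Which sets were compared for each list is unknown here. The ranked list of each single replicate also gives an IDR, so it does not always measure agreement between the 2 replicates. The threshold was a −log10 IDR of at least 2, an IDR of at most 0.01, so each passed in 1 of the 2 lists only. S2, S4, S5 and S9 had the value 5 in all 4 ranked lists, the highest at the locus.

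S8, at base 13378777, was in the list of replicate 1 only. Its signal value was 23.0 (rank 1733 of 1787), and it lay 205 bp from S7 with overlapping peaks. Nearest inside the pooled threshold were S1, with a −log10 IDR of 2.18 and a signal value of 81.7, and S6, with 2.22 and 76.1. Nearest outside it were the peak with its summit at base 13379505, with a −log10 IDR of 0.728 and a signal value of 29.99, and S3, with 0.584 and 87.3. The threshold is set on the IDR by definition, and S3 was outside it with a higher signal value than S1 and S6.

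Most candidate peaks of the locus did not pass. The pooled ranked list held 33 peaks there, of which 26 were not in the thresholded list. Their signal values ran from 2.59 to 87.3 with a median of 29.4, against a median of 23.9 for the whole list of 117774 peaks, of which 2.14% had an IDR of at most 0.01. The locus held 1.44 ranked peaks per kb, against 1.17 per kb over the genome, and 0.304 pooled thresholded summits per kb, against 0.0246. Candidate peaks were thus about as dense at the locus as elsewhere, while thresholded summits, on which the locus was chosen, were denser. The ranked list of replicate 1 held 28 peaks at the locus and that of replicate 2 held 29.

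**Figure D3:**
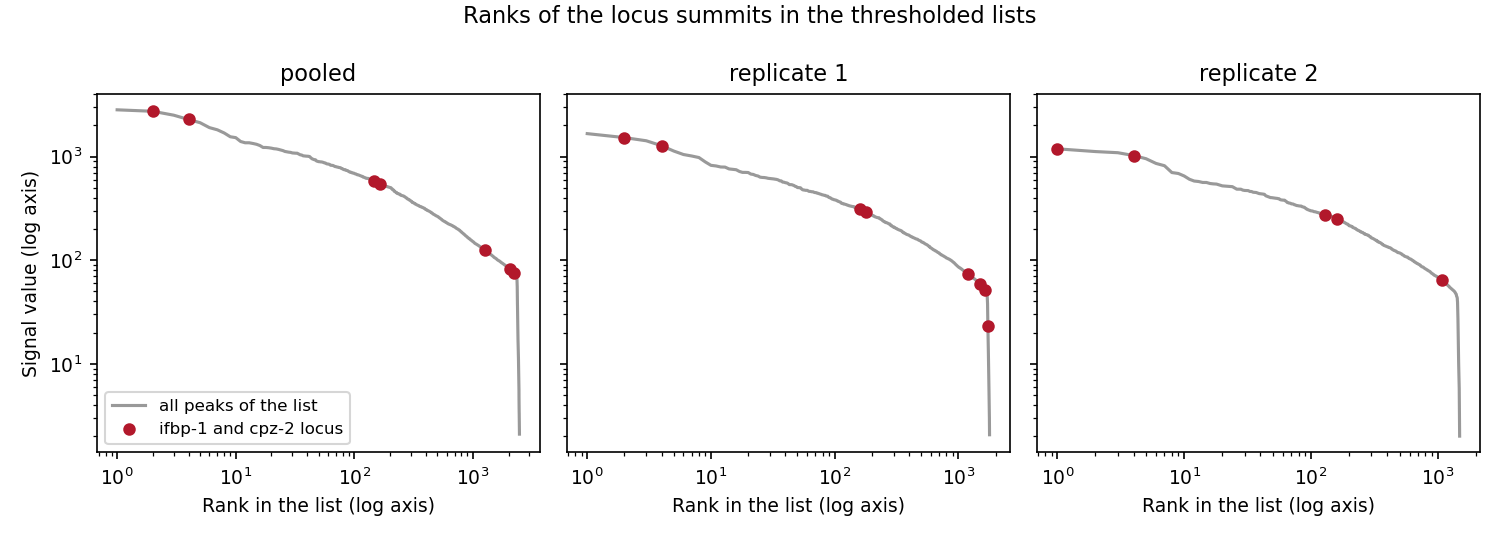
Signal value against rank (both axes log) for all peaks of the pooled, replicate 1 and replicate 2 thresholded lists (grey), with the summits of the ifbp-1 and cpz-2 locus as red points. S2 and S9 sit at ranks 2 and 4 in the pooled list, 2 and 4 in replicate 1, and 1 and 4 in replicate 2, and the lowest summit of the locus is at rank 2225 of 2470, 1733 of 1787 and 1083 of 1487.

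The 7 summits of the locus ranked from 2 to 2225 of the 2470 in the pooled list. The nearest pooled summits outside it were at base 13358945, with a signal value of 96.2 and 11138 bp from ifbp-1, and at base 13391575, with 112 and 8498 bp beyond cpz-2. The conservative list had a nearer one at base 13389684, with 106 and 6607 bp beyond cpz-2.

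The Grainyhead palindrome AACCGGTT occurred 4 times at the locus, of 990 times in the genome. Distances to a site are counted from its first base. One lay 8 bp from the summit of S9 (bases 13380400 to 13380407) and one 48 bp from that of S5 (bases 13376008 to 13376015). The peak of S2 held 2 palindromes, 73 bp to one side of its summit (bases 13371465 to 13371472) and 140 bp to the other (bases 13371678 to 13371685). All 4 were inside pooled peaks and 3 were within 100 bp of a summit, against 9.6% of the palindromes of the genome. The palindromes at S2 and S9 were known when the locus was chosen, so this share is a description only.

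Pairs of palindromes in 1 peak were rare. The 2 in the S2 peak were 213 bp apart, and 16 of the 990 palindromes had another at that distance or less. Of the 2470 pooled peaks, 103 held a palindrome and 2 held more than 1, the S2 peak among them. Within 5 kb of a gene, ebp-3 had as many palindromes as ifbp-1, 4, but no pooled summit (it is named here after its values were seen). Of 19973 protein-coding genes, ifbp-1 was the 1 with 3 pooled summits that had a palindrome within 100 bp. These include S2 and S9, on which the locus was chosen with their palindromes known, so the counts of this paragraph are a description only.

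The related site AACTGGTT occurred 5 times at the locus. One lay 50 bp from the summit of S7, and one lay 173 bp from that of S9, in the 5′ UTR of ifbp-1 transcript b. The other 3 were outside pooled peaks, at bases 13375753 and 13378018 of the longest ifbp-1 intron and at base 13382071 in a coding exon of cpz-2. A core ACCGGT without the rest of the palindrome, at base 13379791, was also outside the peaks.

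Counted by summit, 4 of the 7 pooled summits (S2, S5, S7 and S9) had a Grainyhead-type site within 100 bp, against 11.7% of all pooled summits. The palindromes at the highest summits were known when the locus was chosen, so this share is a description. S1 and S6 had none of the motifs searched in their windows, which also included the E-box CACGTG (11.1% of all pooled summits), and both were near the foot of the pooled list. S4 also had no Grainyhead-type site, with a pooled signal value of 582, above the 550.1 of S5, which had a palindrome.

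In the sequences shown, GAGAGA matched 2 times at S2, 2 times at S5 and 1 time at S7, and not at S9. It occurred at 35.2% of all pooled summits within 100 bp, and the palindrome at 3.81%. The part of the repeat in the signal value was not tested.

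**Figure D4:**
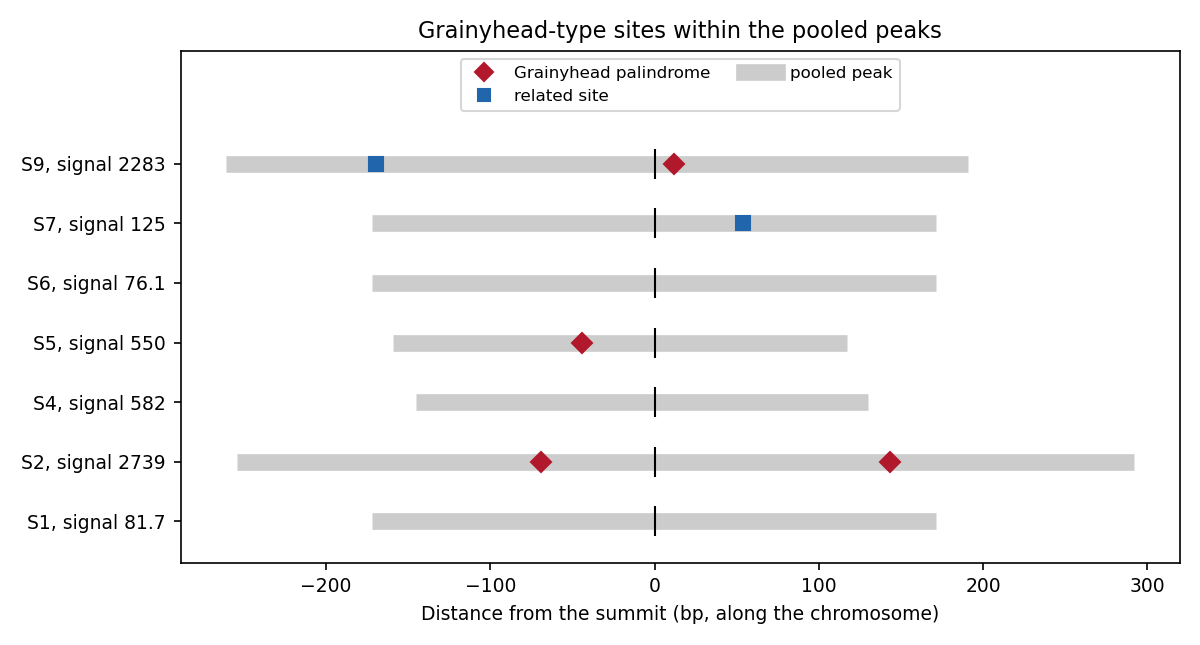
Grainyhead-type sites within the 7 pooled peaks of the locus, from S1 at the bottom to S9 at the top. The x axis is the distance from the summit in bp, grey bars are the peaks, diamonds palindromes and squares related sites; the S2 peak has 2 palindromes, and the S9 peak has a palindrome and a related site.

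The number of summits and of palindrome summits was also counted for all protein-coding genes, with ifbp-1 and cpz-2 among them. Of the protein-coding genes, 7 had at least the 7 pooled summits within 5 kb that ifbp-1 had, and 406 had at least the 3 of cpz-2. By the rule that took the genes with the most summits, sharing none with ifbp-1 or with each other, those named beside it were mnk-1, a MAP kinase-interacting kinase gene, with 10, mdl-1, a Mad-like transcription factor gene, with 8, and epc-1, a gene of the Enhancer of polycomb family, with 7. None of these had a summit with a palindrome within 100 bp. Their highest signal values were 513 at mnk-1, 554 at mdl-1 and 1112 at epc-1, and 2739 at ifbp-1, which was chosen for it. The genes differ in length. Per 10 kb of the gene with its flanks, there were 6.93 summits at mdl-1, 4.42 at mnk-1, 3.69 at epc-1 and 3.47 at ifbp-1. Those with the most palindrome summits were C05D9.9 (2 of 2 summits), H40L08.2 (2 of 4) and Y48C3A.5 (1 of 3). In both rankings, ties were broken by summed signal value. Other genes also had 1 palindrome summit, so Y48C3A.5 was named for its signal. Its highest value, 2127, therefore follows from that choice. These counts are over 1 group of 2 replicates in the pooled list.

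**Figure D5:**
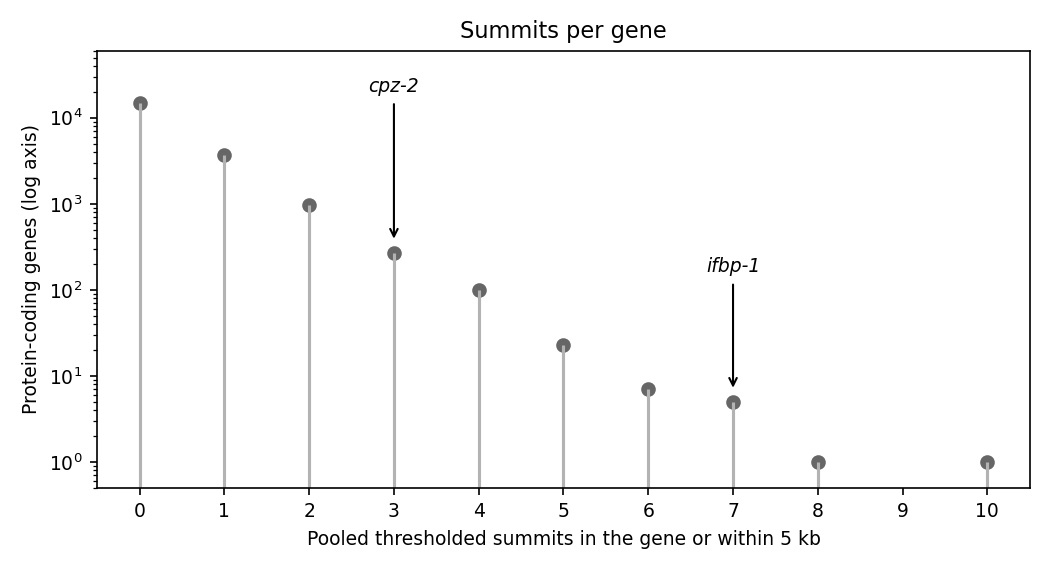
Number of protein-coding genes (log axis) by the number of pooled thresholded summits in the gene or within 5 kb. ifbp-1 has 7 and cpz-2 has 3, and 14950 genes have none.

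Gene lists related by name or family were counted in the same way. Among 10 papain-family cysteine protease genes other than cpz-2, 1 (cpr-9, a cathepsin B-like gene, signal value 83.3) had a pooled summit in a promoter window, against 8.16% of all genes, and 4 had one within 5 kb, against 25.1%. The paralogue cpz-1 had 1 summit within 5 kb, with a signal value of 215, and none in a promoter window. The gene cpr-1 had 3 within 5 kb, up to 868, 1 of them with a palindrome. None of these 10 genes had a summit as high as S9, on which cpz-2 was chosen.

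The lists of intermediate filament and attachment genes had been set from a reading of the symbol ifbp-1 that the annotated product does not bear out, and they are given for completeness. Of 14 intermediate filament genes and partners found, 0 had a pooled summit in a promoter window, against 8.16% of all genes, and 5 (35.7%) had one within 5 kb, against 25.1%. The list had 15 symbols, of which ifa-2 was not found under that name, so the 0 does not cover that gene. The 0 leaves out mua-6, an intermediate filament gene with a promoter summit that was counted with the attachment genes. That summit is also the 1 counted within 5 kb of ifa-3, so it enters both lists. Of 8 hemidesmosome and attachment genes, 5 (62.5%) had one within 5 kb, against 25.1% of all genes, and 3 (37.5%) had one in a promoter window, against 8.16%: vab-10, a spectraplakin gene, with a signal value of 109, mup-4, a gene for a transmembrane attachment protein, with 77.6, and mua-6, itself an intermediate filament gene, with 87.2. These values were all below the median of the pooled list, 126.7, and below the values of S2 and S9. Longer genes span more bases, and the shares within 5 kb take no account of gene length.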

How the data were processed

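GRH-1 ChIP-seq peak lists of 2 biological replicates of 1 group were used. The authors deposited peaks in ce11 coordinates, per the labels, for each replicate and for the pool. No aligner or peak caller is named in the sources used here. The deposited signal value is a score of the authors that belongs to its own list, so it was used to describe and rank peaks within that list; ratios between the replicates' values are read only against the same ratio over all matched summits. The deposited ranked lists also give the −log10 of the IDR per peak. Thresholded peaks all reached a −log10 IDR of 2 in the ranked list they were matched to, which paired the pooled and the conservative list with different ranked lists (117774 and 118140 peaks). Another 16 columns of the pooled ranked lists were left unused. The number of reads is unknown, so no counting interval is given.

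Summits were taken in ifbp-1, in cpz-2 or within 5 kb, and matched between lists within 100 bp. Genes and transcripts were those of Ensembl release 115, and sequences those of the reference genome of the same build, with equal length of chromosome V (20924180 bp). Product names are those of RefSeq. Both strands of 201 bp windows were scanned for motifs. The sequence around S4 is not reported here. The site search and the counting of summits were checked on simulated data. Python 3.11.15, numpy 2.4.6, pandas 2.3.3 and matplotlib 3.10.9 were used.

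The members, gene lists and sites were chosen with earlier results of these data known, so nothing was tested. The rule named the 2 genes, every gene overlapping the window, list members with a promoter summit and cpz-1, and up to 3 other genes each with the most summits and with the most palindrome summits within 5 kb, without shared summits. The genes ebp-3 and cpr-1 and the summits S1 to S9 fall outside it; the genes were named after their values were seen. Alternatives were other lists, flanks, windows, sites and match rules, and leaving out each replicate.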

Additional observations from a re-analysis of the deposited data

How the results depend on the processing

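Of 45 alternatives of 8 results, 37 gave a value within 1.5 times of the reported one, or the same rank, and 8 did not. With the upper part of the pooled list alone, the peaks above its median signal value, the locus held 4 summits in place of 7. With a window of 50 bp, 2 summits had a Grainyhead-type site in place of 4. The rank of the highest summit was 1 to 2 with 1 replicate left out (1 without replicate 1), and that of the second highest was 4 in every list. Genes of the 3 lists with a promoter summit, 4 of 32, were 2 with a promoter window of 500 bp before and 100 bp after the 5′ end, 7 with 2000 bp before and 200 bp after it, 2 with the conservative list, and 0 to 1 with 1 replicate left out (0 without replicate 1, 1 without replicate 2), so these counts rest on low summits of the pooled list. Without 1 replicate the locus held 5 to 8 summits and 28 to 29 ranked peaks, and 3 palindromes were under a summit either way. The causes were not tested. No paired analysis was possible because there was 1 group. The unknown depth limits what the absence of a summit can show.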
